A study of Drosophila melanogaster with 9 samples.

Results

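The heat shock genes described here are 9 rows of the count table, chosen by gene name out of 14409 genes: Hsp22, Hsp23, Hsp26, Hsp27, Hsp67Ba, Hsp67Bb, Hsp67Bc, Hsp68 and Hsp83. All 9 were found in the table, and 8 of them passed the filter on low counts (Hsp22 did not). RNA was sequenced from ring glands, the compound endocrine organ of the fly larva, dissected from w1118 larvae of Drosophila melanogaster. The 9 libraries form 3 groups of 3: larvae starved after the nutrient restriction checkpoint (post-NRC starvation), larvae starved before it (pre-NRC starvation) and feeding larvae. Each library came from a pool of about 1200 glands, and the feeding columns carry a time of 108 h in their names. The sources used here give no age, diet or length of starvation for the starved groups. All groups share the same w1118 strain, and no transgene is named.

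Small heat shock proteins carry an alpha-crystallin domain and hold unfolding proteins in a soluble form without using ATP. The Hsp70 proteins, among them Hsp68, then refold such clients with ATP, and the fly Hsp90 protein, Hsp83, matures kinases and nuclear receptors together with a set of co-chaperones. In flies the small heat shock genes of the 67B region are known to respond to the steroid ecdysone as well as to heat, and the prothoracic gland cells of the ring gland are the source of ecdysone.

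In pre-NRC starvation the small heat shock transcripts Hsp23, Hsp67Ba and Hsp67Bc were lower than in feeding glands, as was Hsp67Bb. In the fit of all 9 libraries Hsp67Bb had the largest decrease of the 8 genes tested. In post-NRC starvation Hsp67Bb was again lower than in feeding glands, while Hsp23 and Hsp26 were higher than in pre-NRC starvation. Hsp83, the most abundant of the 9 transcripts, did not pass the main test in any of the comparisons. In pre-NRC starvation against feeding it was called lower in some of the alternative fits. Hsp27 and Hsp22 were near the floor of detection in most libraries, each with far higher counts in a few of them.

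Total counts ran from 29123939 to 36131089 per library, and the 9 genes together took 0.517% to 0.590% of them in post-NRC starvation, 0.212% to 0.377% in pre-NRC starvation and 0.462% to 0.609% in feeding. Levels are given as CPM (counts scaled to a common library size with TMM factors), and changes as log2 differences with their standard error (SE) from edgeR's quasi-likelihood test, where an adjusted p under 0.05 (Benjamini-Hochberg over all 10883 genes tested) counts as a call. Replicate 3 of every group stood apart from the other replicates, and 19% of all genes tested differed between them in a fit that also held the groups. Among the heat shock genes Hsp67Ba was higher in replicate 3, with a log2 difference of 1.62 (SE 0.42, adjusted p = 0.0350, edgeR), and so was Hsp67Bc, with 1.43 (SE 0.39, adjusted p = 0.0426, edgeR). For each comparison the calls in replicates 1 and 2 alone are therefore given as well. Feeding replicates 1 and 2 were closer to each other than any other pair within a group, with a chi-square per degree of freedom of 46.8 against 231 to 819. They still differed by more than sampling noise and were kept as separate libraries, with their sum as an alternative. The median log2 change of all genes was 0.00 between pre-NRC starvation and feeding, 0.02 between post-NRC starvation and feeding and -0.02 between the starved groups.

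Levels can be set between genes only per length, as in the FPKM values deposited by the authors (fragments scaled to transcript length and library size). On that scale Hsp83 was the highest of the 9 in every group, with 903 ± 157 FPKM in post-NRC starvation, 687 ± 185 FPKM in pre-NRC starvation and 1119 ± 125 FPKM in feeding (SD, n = 3 in each group). Hsp23 came next in post-NRC starvation (823 ± 138 FPKM) and in feeding (679 ± 43.8 FPKM, SD, n = 3), ahead of Hsp26 with 812 ± 31.2 and 475 ± 216 FPKM in these groups. In pre-NRC starvation Hsp26 (223 ± 118 FPKM) and Hsp23 (213 ± 178 FPKM) changed places, by less than their spread. Hsp67Ba was the lowest of the clearly detected genes, with 8.12 ± 1.92 FPKM in post-NRC starvation, 1.18 ± 1.48 FPKM in pre-NRC starvation and 6.98 ± 4.72 FPKM in feeding. Hsp22 was lowest in both starved groups and Hsp27 in feeding.

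**Figure D1:**
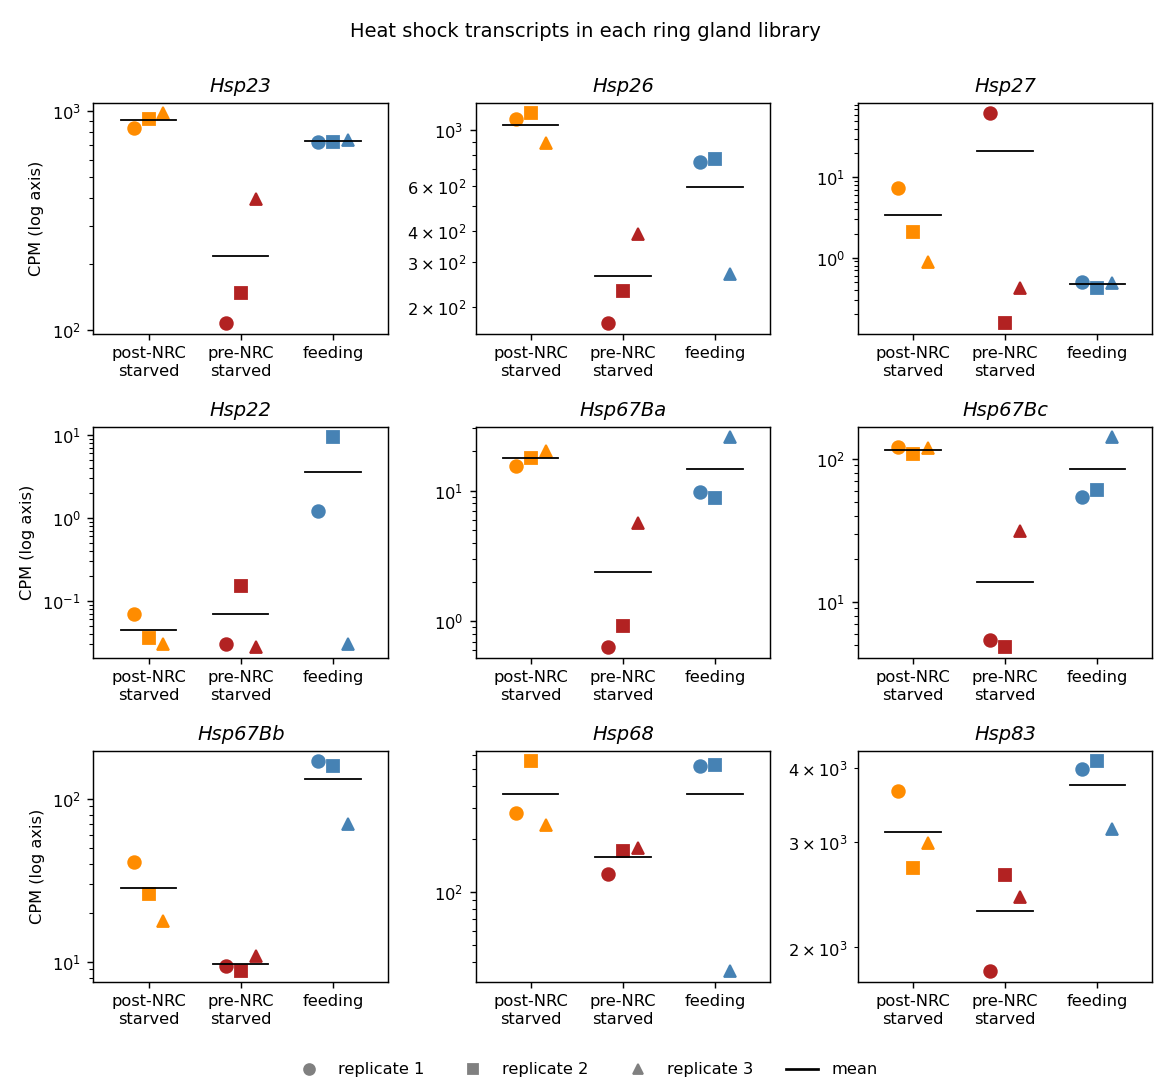
CPM (log axis) of the 9 heat shock genes in every library, with 3 libraries a group in post-NRC starvation, pre-NRC starvation and feeding; the marker shape gives the replicate number and the bar the group mean. Hsp23, Hsp67Ba, Hsp67Bb and Hsp67Bc were lower in every pre-NRC starvation library than in any feeding library, and feeding replicate 3 stood far below the other feeding libraries for Hsp68.

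The 7 genes other than Hsp68 and Hsp83 lie within 14.18 kb of chromosome arm 3L, from 9371511 to 9385694 in the reference annotation of build BDGP6. Of these, 6 carry an alpha-crystallin domain in the table's Pfam annotation, while Hsp67Bb is annotated with a rhodanese-like domain and now bears the symbol CG4456. Hsp83 (3L, 3192969 to 3197059, plus strand) and Hsp68 (3R, 24055080 to 24057310, minus strand) lie elsewhere. All exonic bases of Hsp22 are also exonic in Hsp67Bb on the same strand, which makes 90.1% of those of Hsp67Bb. Counts of this pair are therefore uncertain in how they were divided. Of the exonic bases of Hsp67Ba, 75.9% lie opposite a non-coding RNA on the other strand (asRNA:CR43481). As the strand setting of the counting is not given in the sources used here, reads of the gene and of its antisense partner cannot be told apart.

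**Figure D2:**
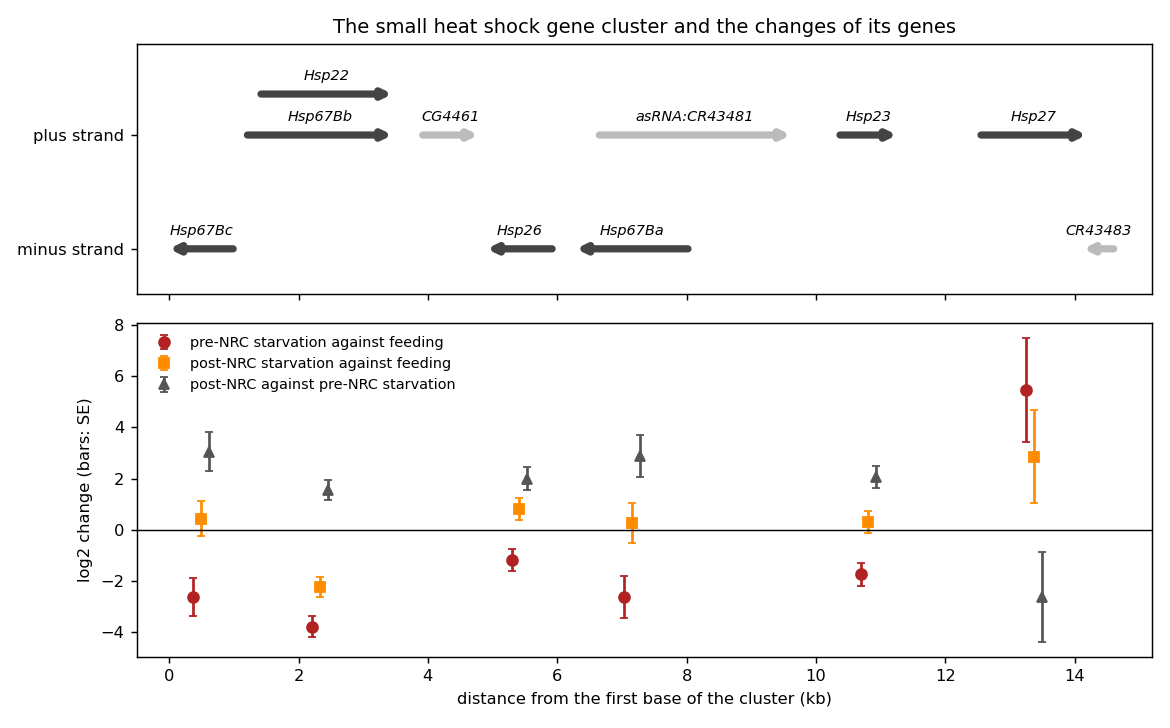
Top, the genes of the small heat shock cluster on both strands by distance in kb from its first base, with the 7 heat shock genes in dark grey and their neighbours in light grey. Bottom, the log2 change of each tested gene with its SE in the 3 comparisons: 5 of the 6 tested genes lie below 0 in pre-NRC starvation against feeding and above 0 in post-NRC against pre-NRC starvation, and Hsp27 lies on the other side in both.

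How the gland's transcripts differed after food withdrawal before the checkpoint was asked by setting pre-NRC starvation against feeding. Of the 8 heat shock genes tested, 4 were lower and 0 higher, against 11.5% of all genes called lower, 16.1% called higher and 27.5% in either direction, and the median log2 change of the 8 was -1.47. At an unadjusted p under 0.05 edgeR had 6 lower and 1 higher, and DESeq2 and limma-voom called 6 and 5 lower and 0 higher. DESeq2 gave Hsp27 no adjusted p. Of all 10883 genes tested, 1991 were lower and 2508 higher at that unadjusted p. For all genes DESeq2 called 1525 lower and 2309 higher, and limma-voom 1305 and 1579. In 5 of the 9 genes every pre-NRC starvation library lay below every feeding library, which held for 23.1% of all genes tested, and 0 lay wholly above, against 25.3% of all genes. A bulk library cannot tell fewer cells of a type from less RNA per cell, and the levels of cell type markers moved with the comparison. All 6 prothoracic gland markers were lower, with a summed level of 3654 to 11190 CPM in pre-NRC starvation and 26110 to 36430 CPM in feeding. Gut markers were higher in 6 of 7 cases (2126 to 12590 CPM in pre-NRC starvation, 60.8 to 518 CPM in feeding), hemocyte markers in 4 of 9 (3326 to 10200 CPM in pre-NRC starvation, 849.8 to 2297 CPM in feeding) and muscle markers in 5 of 10 (8331 to 12850 CPM in pre-NRC starvation, 6125 to 6481 CPM in feeding). Genes of tissue damage and the JNK response were higher in 4 of 8 cases (371 to 574 CPM in pre-NRC starvation, 184 to 394 CPM in feeding). Of the other lists, corpora cardiaca markers were higher in 4 of 5 cases, corpora allata in 1 of 3, glia in 3 of 5, neurons in 2 of 6 and fat body in 1 of 7, and salivary gland markers were lower in 3 of 7. The other 2 glia markers changed below 0, and the glia sum was 119.8 to 182.5 CPM in pre-NRC starvation and 172.2 to 227.5 CPM in feeding. Among fat body markers 5 of 7 changed below 0 (median -0.76), with sums of 140.5 to 2194 CPM in pre-NRC starvation and 649.6 to 1753 CPM in feeding. None of the markers was at 0 in either group, and the part of these shifts in the heat shock results was not tested.

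Hsp23, a small heat shock protein of the cytoplasm, had 107, 148 and 397 CPM in pre-NRC starvation replicates 1, 2 and 3, against 720.4, 723 and 739.7 CPM in feeding. The feeding libraries were close to each other, and the highest starved library, replicate 3, still lay well below them. The log2 change was -1.74 (SE 0.44, adjusted p = 0.0209, edgeR; lower in 3 of 3 libraries). Leaving out feeding replicate 1 (adjusted p = 0.0593), feeding replicate 2 (0.0607) or pre-NRC starvation replicate 2 (0.0757, edgeR) ended the call, and in replicates 1 and 2 alone the change was -2.52 (adjusted p = 0.00112, edgeR).

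Hsp26, another cytoplasmic small heat shock protein, had 172, 232 and 389 CPM in pre-NRC starvation and 747, 766 and 271 CPM in feeding. Feeding replicate 3 lay below pre-NRC starvation replicate 3, so the groups overlapped, and the change did not pass (-1.17, SE 0.43, adjusted p = 0.0734, edgeR). It passed where either feeding replicate 3 (-1.53, adjusted p = 0.0191) or pre-NRC starvation replicate 3 (-1.56, adjusted p = 0.0346, edgeR) was left out.

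Hsp67Bc, another alpha-crystallin gene, had 5.43, 4.82 and 31.3 CPM in pre-NRC starvation and 54.2, 60.4 and 141 CPM in feeding. Replicate 3 was the highest library of each group, and the groups did not overlap. The log2 change was -2.62 (SE 0.73, adjusted p = 0.0298, edgeR), and its adjusted p lay between 0.0549 and 0.0829 without feeding replicate 1, 2 or 3 or pre-NRC starvation replicate 1 or 2.

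Hsp67Ba had 0.633, 0.921 and 5.64 CPM in pre-NRC starvation and 9.72, 8.74 and 25.6 CPM in feeding. The pattern over libraries was that of Hsp67Bc at a lower level, with replicate 3 highest in both groups. Its log2 change was -2.61 (SE 0.82, adjusted p = 0.0436, edgeR). Of the fits without 1 library, that without pre-NRC starvation replicate 3 kept the call (-4.24, adjusted p = 0.00217) and the other 8 lost it, with an adjusted p of up to 0.126 (without pre-NRC starvation replicate 2, edgeR).

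Hsp67Bb, the gene with the rhodanese-like domain, had 9.47, 8.78 and 10.9 CPM in pre-NRC starvation and 170.3, 158 and 70.5 CPM in feeding. The starved libraries were close to each other, and even the lowest feeding library, replicate 3, lay far above them. This was the only one of the 9 genes whose call held in all 9 fits without 1 library (log2 change -3.78, SE 0.43, adjusted p = 0.00143, edgeR; range -4.09 to -3.57). With the counts of Hsp22 added to those of Hsp67Bb, which share exons, the change was -3.80 (SE 0.43, adjusted p = 0.00145, edgeR). On log2(FPKM + 1) the change of Hsp67Bb was smaller, at -3.08 (SE 0.31, adjusted p = 0.000433, limma). Without pre-NRC starvation replicate 3, Hsp67Ba (-4.24) and Hsp67Bc (-4.06) fell more than Hsp67Bb (-3.87).

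Hsp68, the heat-inducible Hsp70 relative, had 127, 170 and 178 CPM in pre-NRC starvation and 522.5, 524 and 35.2 CPM in feeding. Feeding replicate 3 was the lowest of all 9 libraries while feeding replicates 1 and 2 were above every pre-NRC starvation library. The change did not pass (-1.19, SE 0.78, adjusted p = 0.283, edgeR), and it stood at -1.74 without feeding replicate 3 (adjusted p = 0.0160, edgeR).

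Hsp83, the Hsp90 protein, had 1825, 2643 and 2427 CPM in pre-NRC starvation and 3971, 4098 and 3154 CPM in feeding. The groups did not overlap, but the change missed the threshold (-0.70, SE 0.24, adjusted p = 0.0551, edgeR). With the replicate number as a block it passed (-0.70, adjusted p = 0.0476, edgeR), which made 5 of the 8 tested genes lower. Of the 14 alternatives other than those without 1 library, 5 called Hsp83 lower, and of the 9 fits without 1 library 0 did.

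Hsp27, a small heat shock protein of the nucleus, had 2069, 5 and 15 counts in pre-NRC starvation and 16, 14 and 16 counts in feeding. One library, pre-NRC starvation replicate 1, held 62.4 CPM, and the other starved libraries held 0.153 CPM (95% exact Poisson interval 0.0498 to 0.358) and 0.417 CPM (0.233 to 0.687), intervals that cover counting error only. The fitted change of 5.47 (SE 2.02, adjusted p = 0.0732, edgeR) therefore rests on that library: without it the change was -0.72 (adjusted p = 0.628, edgeR).

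Hsp22, whose protein is known from mitochondria, had 1, 5 and 1 counts in pre-NRC starvation and 39, 309 and 1 counts in feeding. Feeding replicate 3 was as low as the starved libraries, so the groups overlapped. It was tested in 9 alternative fits, of which 4 called it lower in pre-NRC starvation (adjusted p between 0.0117 and 0.111, edgeR). In the fit without a filter the change was -5.60 (SE 1.65, adjusted p = 0.0405, edgeR). All the other fits let Hsp22 in only through feeding replicates 1 and 2, where it was high. The call with the lowest adjusted p also left out feeding replicate 3. Calls in these filtered fits are therefore no support for a difference.

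With replicates 1 and 2 of each group alone, 8 of the 9 genes were lower in pre-NRC starvation than in feeding, and Hsp27 was the exception. Hsp22 is among the 8, but it passed the filter of that fit only through the feeding libraries, where it was high. Of the genes that had not passed with all 9 libraries, Hsp26 stood at -1.93 (adjusted p = 0.00158), Hsp68 at -1.84 (0.0105) and Hsp83 at -0.87 (0.0340, edgeR). The feeding side of that fit is the closest pair of libraries in the study, and with their counts summed into 1 library Hsp67Bb was the only heat shock gene called. All genes called in either direction numbered 4598 in the fit of replicates 1 and 2 and 2998 in that of all 9 libraries. The count of heat shock genes in replicates 1 and 2 thus rose together with that of all genes, whose share called lower there is not given here. Without feeding replicate 1 or 2 or pre-NRC starvation replicate 2, only 1 of the heat shock genes was called, Hsp67Bb, and 2 without pre-NRC starvation replicate 1.

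**Figure D3:**
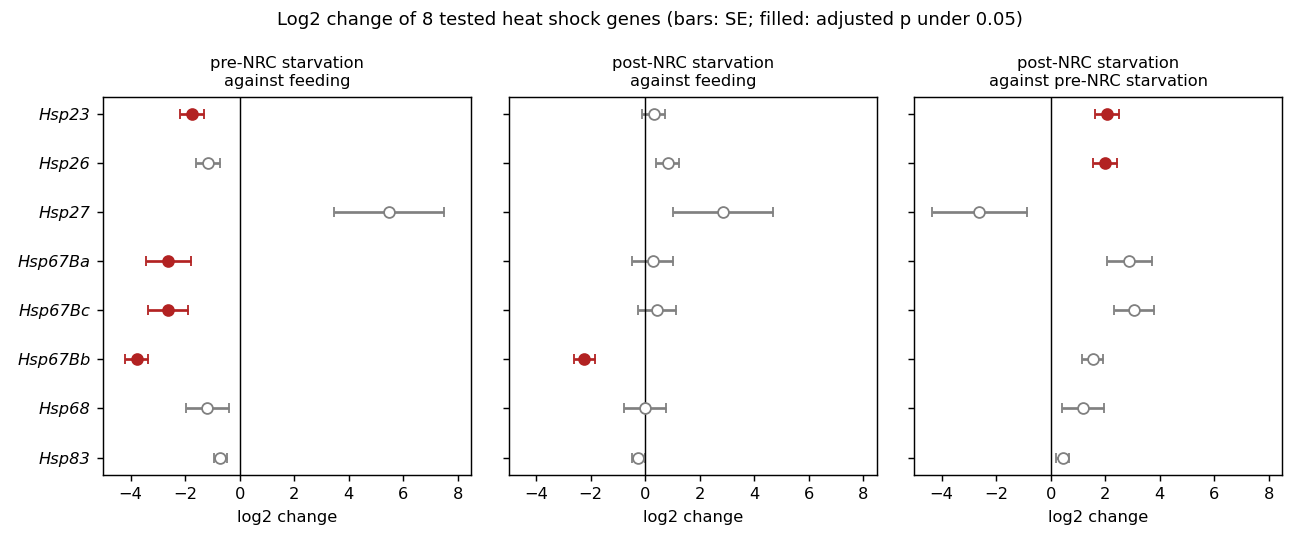
Log2 change with its SE of the 8 tested heat shock genes for each starved group against feeding and for post-NRC against pre-NRC starvation; filled red points have an adjusted p under 0.05. In all, 4 genes are filled in the first panel, all below 0, Hsp67Bb alone in the second, and Hsp23 and Hsp26, both above 0, in the third.

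The comparison of post-NRC starvation with feeding asks the same of food withdrawal after the checkpoint. It shares its 3 feeding libraries with the comparison above. Hsp67Bb was lower and 0 heat shock genes were higher, against 0.175% of all genes called lower and 0.634% called higher. At an unadjusted p under 0.05 edgeR had 1 lower and 0 higher, DESeq2 called 1 lower and 0 higher, and limma-voom called 0 in either direction. Of all 10883 genes tested, 557 were lower and 1052 higher at that unadjusted p. For all genes DESeq2 called 184 lower and 549 higher, and limma-voom 14 and 27. The median log2 change of the 8 genes was 0.30. Prothoracic gland markers summed to 17820 to 22870 CPM in post-NRC starvation and 26110 to 36430 CPM in feeding, with 0 of 6 passing in edgeR, and gut markers to 985 to 3725 CPM and 60.8 to 518 CPM in these groups, with 1 of 7 higher. Muscle markers summed to 2617 to 5133 CPM in post-NRC starvation and 6125 to 6481 CPM in feeding, with 0 of 10 passing in edgeR. Of their changes 8 were below 0 and 2 above. Genes of tissue damage and the JNK response summed to 327 to 423 CPM in post-NRC starvation and 184 to 394 CPM in feeding, with 1 of 8 higher and the other changes above 0 as well (median 0.65). Their part in the heat shock results was not tested.

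Hsp67Bb had 41.0, 26.3 and 18.0 CPM in post-NRC starvation, against 170.3, 158 and 70.5 CPM in feeding. Every starved library lay below every feeding library, as in 10.3% of all genes tested. Its log2 change was -2.23 (SE 0.40, adjusted p = 0.0452, edgeR). The call held without feeding replicate 3 or pre-NRC starvation replicate 3 and was lost without any of the other 7 libraries, with an adjusted p of up to 0.193 (without feeding replicate 1, edgeR).

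None of the alpha-crystallin genes passed the test in this comparison. Hsp23 had 835, 917 and 975 CPM in post-NRC starvation against 720.4, 723 and 739.7 CPM in feeding (log2 change 0.32, SE 0.43, adjusted p = 0.795, edgeR). Hsp26 had 1105, 1165 and 886.5 CPM against 747, 766 and 271 CPM in feeding (0.82, SE 0.43, adjusted p = 0.427, edgeR). For both genes every post-NRC starvation library was above every feeding library, which held for 3 of the 9 genes and 13% of all genes tested, and neither passed the test.

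The third such gene was Hsp27, with 209, 59 and 29 counts in post-NRC starvation, or 7.30, 2.10 and 0.886 CPM, against 0.5002, 0.423 and 0.490 CPM in feeding. The replicates of post-NRC starvation differed among themselves by more than the gap to feeding, and the change did not pass (2.85, SE 1.82, adjusted p = 0.531, edgeR). Hsp67Bc had 121, 108 and 118 CPM in post-NRC starvation against 54.2, 60.4 and 141 CPM in feeding (0.44, SE 0.69, adjusted p = 0.832, edgeR). In replicates 1 and 2 alone it was higher (1.00, adjusted p = 0.0234, edgeR). Hsp67Ba had 15.3, 17.7 and 20.2 CPM in post-NRC starvation against 9.72, 8.74 and 25.6 CPM in feeding (0.27, SE 0.77, adjusted p = 0.916, edgeR). For both of these genes feeding replicate 3 lay above all post-NRC starvation libraries and feeding replicates 1 and 2 below them.

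Hsp68 had 282.5, 553 and 240.0 CPM in post-NRC starvation, which overlapped with 522.5, 524 and 35.2 CPM in feeding (-0.01, SE 0.77, adjusted p = 0.999, edgeR; the sign turned under many of the alternatives). Hsp83 had 3660, 2718 and 2990 CPM in post-NRC starvation, which overlapped with 3971, 4098 and 3154 CPM in feeding (-0.26, SE 0.24, adjusted p = 0.685, edgeR). Hsp22 had 2, 1 and 1 counts in post-NRC starvation against 39, 309 and 1 in feeding. It was called lower in 1 of the 9 fits it entered, the one without feeding replicate 3 (adjusted p = 0.0409, edgeR). That fit leaves out the feeding library where Hsp22 was low, and Hsp22 passed its filter only through the other feeding libraries. The call is therefore no support for a difference.

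The comparison of post-NRC with pre-NRC starvation asks whether glands of starved larvae differed between the sides of the checkpoint. Of the 8 genes tested, 2 were higher in post-NRC starvation and 0 lower, against 1.9% of all genes called higher, 3.29% called lower and 5.19% in either direction, with a median log2 change of 1.77. At an unadjusted p under 0.05 edgeR had 5 higher and 0 lower, and DESeq2 and limma-voom called 5 and 4 higher and 0 lower. Of all 10883 genes tested, 1314 were higher and 1626 lower at that unadjusted p. For all genes DESeq2 called 690 higher and 1196 lower, and limma-voom 287 and 447. In 7 of the 9 genes, all but Hsp22 and Hsp27, every post-NRC starvation library lay above every pre-NRC starvation library, as in 13.7% of all genes tested. Prothoracic gland markers were higher in 1 of 6 cases, with 17820 to 22870 CPM in post-NRC starvation and 3654 to 11190 CPM in pre-NRC starvation, and muscle markers lower in 4 of 10, with 2617 to 5133 CPM and 8331 to 12850 CPM in these groups. Corpora cardiaca markers were lower in 2 of 5 cases, and 1 marker each was lower among those of gut, hemocytes and tissue damage. Their part in the result was not tested.

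Hsp23 was 4.18 times higher in post-NRC starvation (835, 917 and 975 CPM) than in pre-NRC starvation (107, 148 and 397 CPM), a log2 change of 2.06 (SE 0.44, adjusted p = 0.0389, edgeR; higher in 3 of 3 libraries). Hsp26 was 3.98 times higher (1105, 1165 and 886.5 CPM in post-NRC starvation, against 172, 232 and 389 CPM in pre-NRC starvation; log2 change 1.99, SE 0.44, adjusted p = 0.0429, edgeR). Replicate 3 was the highest pre-NRC starvation library for both genes and still lay below all post-NRC starvation libraries. Both calls held without feeding replicate 3 or pre-NRC starvation replicate 3 and were lost without any of the other 7 libraries, with adjusted p values of up to 0.145 for Hsp23 and 0.151 for Hsp26 (both without post-NRC starvation replicate 1, edgeR).

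Whether Hsp67Ba, Hsp67Bb and Hsp67Bc passed depended on the fit, and with edgeR on all 9 libraries they did not. Hsp67Bc had 121, 108 and 118 CPM in post-NRC starvation against 5.43, 4.82 and 31.3 CPM in pre-NRC starvation (3.06, SE 0.75, adjusted p = 0.0505, edgeR). Hsp67Ba had 15.3, 17.7 and 20.2 CPM against 0.633, 0.921 and 5.64 CPM in pre-NRC starvation (2.88, SE 0.83, adjusted p = 0.0720, edgeR). Hsp67Bb had 41.0, 26.3 and 18.0 CPM against 9.47, 8.78 and 10.9 CPM in pre-NRC starvation (1.55, SE 0.39, adjusted p = 0.0543, edgeR). Without pre-NRC starvation replicate 3 Hsp67Bc stood at 4.49 (adjusted p = 0.00305) and Hsp67Ba at 4.51 (0.00507, edgeR), and without feeding replicate 3 Hsp67Bb (adjusted p = 0.0400) and Hsp67Bc (0.0494, edgeR) passed. In DESeq2 all 3 were higher, with adjusted p values of 0.00334 for Hsp67Ba, 0.00331 for Hsp67Bb and 0.000300 for Hsp67Bc, and so they were in edgeR with a term for replicate 3 (0.0122, 0.0241 and 0.0108 in the same order). In replicates 1 and 2 alone Hsp67Ba stood at 4.42 (adjusted p = 0.00242), Hsp67Bb at 1.90 (0.00666) and Hsp67Bc at 4.50 (0.00140, edgeR).

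Hsp68, at 282.5, 553 and 240.0 CPM in post-NRC starvation and 127, 170 and 178 CPM in pre-NRC starvation, did not pass (1.18, SE 0.78, adjusted p = 0.36, edgeR), and stood at 1.52 in replicates 1 and 2 alone (adjusted p = 0.0278, edgeR). Hsp83, at 3660, 2718 and 2990 CPM in post-NRC starvation and 1825, 2643 and 2427 CPM in pre-NRC starvation, did not pass either (0.44, SE 0.24, adjusted p = 0.263, edgeR). For Hsp83 the lowest post-NRC starvation library was only slightly above the highest pre-NRC starvation library. Hsp27 differed by -2.61 (SE 1.75, adjusted p = 0.367, edgeR), a sign set by pre-NRC starvation replicate 1: without that library the difference was 3.57 (adjusted p = 0.139, edgeR). Hsp22, at 2, 1 and 1 counts in post-NRC starvation and 1, 5 and 1 counts in pre-NRC starvation, was not called in any of the 9 fits it entered.

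Over the 9 libraries the genes of the cluster did not all move alike. Correlations of log2 CPM are given as a description, over libraries that share their groups and replicate numbers. Hsp67Ba and Hsp67Bc were closest (Pearson r = 0.992), and both followed Hsp23 (r = 0.975 and 0.972). Hsp23 and Hsp26 had r = 0.844. Hsp67Bb was nearer to Hsp83 (r = 0.866), which lies elsewhere on the same arm, than to its cluster neighbours Hsp67Bc (r = 0.581) and Hsp26 (r = 0.468). Hsp68 was nearest to Hsp26 (r = 0.729) and had r = 0.139 with Hsp67Bc. Hsp27 was negatively correlated with each of the others, down to r = -0.485 with Hsp83.

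Among the 10875 other genes tested, those most like Hsp23 over the 9 libraries were HnRNP-K (r = 0.985), an unnamed new gene of the authors' assembly (0.983), ppk22 (0.982), Septin2 (0.981) and CG13082 (0.980). Of these CG13082 averaged 680.2 CPM in post-NRC starvation, 106 CPM in pre-NRC starvation and 395 CPM in feeding. Most like Hsp83 were CG8679 (r = 0.963), Gen (0.961), barc (0.957), CG32772 (0.956) and her (0.955), each with its lowest group mean in pre-NRC starvation and its highest in feeding.

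The heat-induced Hsp70 genes proper, 6 near-identical copies, offer a measure beside Hsp68, since all encode Hsp70 proteins induced by heat. Reads cannot be assigned firmly between the copies: Hsp70Aa had 8, 4 and 1725 counts in feeding replicates 1, 2 and 3, and Hsp70Ab 30481, 30655 and 2582. Their counts were therefore summed. The sum stood at 1229, 241 and 978 CPM in post-NRC starvation, 376, 686 and 333 CPM in pre-NRC starvation and 1297, 1141 and 169 CPM in feeding. It was lowest in feeding replicate 3, the library that was also lowest for Hsp68. In post-NRC starvation replicate 2 the measures parted, with Hsp68 at its highest level of the 9 libraries and the Hsp70 sum at its second lowest. The sum did not pass in pre-NRC starvation against feeding (-0.90, SE 0.76, adjusted p = 0.406, edgeR), post-NRC starvation against feeding (-0.09, SE 0.76, adjusted p = 0.976, and 0.17 with the replicate block) or post-NRC against pre-NRC starvation (0.81, SE 0.76, adjusted p = 0.527, edgeR).

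**Figure D4:**
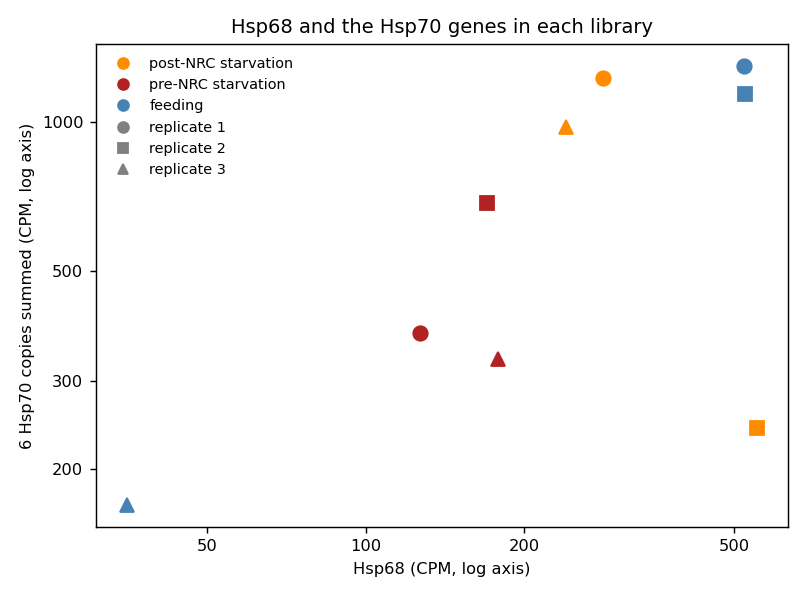
Hsp68 against the summed 6 Hsp70 copies, both in CPM on log axes, in the 9 libraries, with colour for the group and marker shape for the replicate number. Feeding replicate 3 lies at the low end of both axes (35.2 and 169 CPM) and post-NRC starvation replicate 2 has high Hsp68 (553 CPM) beside a low Hsp70 sum (241 CPM).

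Other chaperone genes were described from lists, of which 64 genes were tested. The lists held Hsp70 and Hsp110 relatives, Hsp90 relatives and co-chaperones, and Hsp40 and BAG co-chaperones. They also held the cytosolic chaperonin, other alpha-crystallin genes and heat shock regulators. In pre-NRC starvation 23 of the 64 were lower than in feeding and 1 higher, beside 11.5% and 16.1% of all genes, with a median log2 change of -0.73. Of the 13 Hsp90 relatives and co-chaperones, 8 were lower and 0 higher (median -0.81). These counts were the same at an adjusted and an unadjusted p in edgeR and in DESeq2 and limma-voom. Hop (Stip1), which bridges Hsp70 and Hsp90, averaged 94.2 CPM in pre-NRC starvation and 275.6 CPM in feeding (-1.55, SE 0.26, adjusted p = 0.00551, edgeR). The p23 co-chaperone gene CG16817 was at -1.49 (SE 0.23), the phosphatase PpD3 at -1.12 (SE 0.20) and nudC at -0.94 (SE 0.17), with adjusted p values of 0.00431, 0.00613 and 0.00638 in edgeR. These calls held in all 9 fits without 1 library.

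Of the 13 genes of the cytosolic chaperonin, which folds actin and tubulin, and of prefoldin, 8 were lower and 0 higher at an adjusted p, and 11 lower and 0 higher at an unadjusted p (median -0.96, edgeR). DESeq2 and limma-voom called 11 and 8 lower and 0 higher. For all 10883 genes edgeR called 11.5% lower and 16.1% higher, and at an unadjusted p 1991 were lower and 2508 higher. T-cp1 averaged 150 CPM in pre-NRC starvation and 365 CPM in feeding (-1.29, SE 0.18), Tcp-1eta was at -1.40 (SE 0.20), Cctgamma at -1.22 (SE 0.23) and Cct5 at -1.09 (SE 0.17), with adjusted p values of 0.00310, 0.00318, 0.00798 and 0.00459 in edgeR. Among 14 Hsp70 and Hsp110 genes 3 were lower and 0 higher in edgeR, DESeq2 and limma-voom, with 4 and 0 at an unadjusted p (median -0.48). In either direction edgeR called 27.5% of all genes. The 3 called here were Hsc70Cb (the Hsp110 nucleotide exchange factor, -1.12, SE 0.22), the mitochondrial Hsc70-5 (-0.80, SE 0.17) and CG2918 (Grp170, -0.99, SE 0.30), with adjusted p values of 0.00874, 0.0133 and 0.0396 in edgeR. The call of Hsc70-5 was lost without 2 of the 9 libraries and that of CG2918 without 6.

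Of 16 Hsp40 and BAG genes 4 were lower and 1 higher (median -0.44). Of all genes tested, 11.5% were called lower, 16.1% higher and 27.5% in either direction. DnaJ-H was at -1.01 (SE 0.19), CG4164 (shv) at -1.02 (SE 0.19) and HIP-R, which has a close copy in HIP, at -1.20 (SE 0.25), with adjusted p values of 0.00775, 0.00827 and 0.0112 in edgeR. The gene that rose was jdp (1.03, SE 0.30, adjusted p = 0.0357, edgeR), a call lost without 6 of the 9 libraries. With the replicate block this list had 6 lower and 2 higher, and the share of all genes called in that fit is not given here. The other alpha-crystallin genes and the regulators each had 0 of 4 called in either direction by edgeR, DESeq2 and limma-voom, with 1 of the alpha-crystallin genes lower at an unadjusted p and 0 regulators. The first of these genes, l(2)efl, stood at -0.86 (SE 0.33, adjusted p = 0.0824, and 0.0316 with the replicate block, edgeR), and CG14207 at 0.07 (SE 0.25, adjusted p = 0.856, edgeR; the sign turned without feeding replicate 3 or pre-NRC starvation replicate 1). Transcripts of Hsf, the heat shock factor, differed by -0.30 (SE 0.39, adjusted p = 0.603, edgeR) and those of HDAC6 by 0.62 (SE 0.38, adjusted p = 0.250, edgeR).

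In post-NRC starvation against feeding 0 of the 64 chaperone genes passed in edgeR and limma-voom, and their median log2 change was -0.25. There were 13 lower and 0 higher at an unadjusted p in edgeR, and 4 lower in DESeq2. Of all 10883 genes tested, edgeR called 0.175% lower and 0.634% higher. At an unadjusted p 557 of all genes were lower and 1052 higher, and DESeq2 called 184 lower and 549 higher. The abundant Hsc70-4, the constitutive cytosolic Hsp70, stood at -0.51 (SE 0.21, adjusted p = 0.309, edgeR) and the endoplasmic reticulum Hsp70, Hsc70-3, at -0.45 (SE 0.41, adjusted p = 0.685, edgeR). Droj2 stood at -0.45, Cctgamma at -0.43, Cct5 at -0.39, l(2)efl at -0.45, CG14207 at -0.10 and Hsf at -0.30, and Gp93 (0.10), FKBP59 (0.07), DnaJ-1 (0.03) and HDAC6 (0.14) lay close to 0 and changed sign under some alternatives.

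In post-NRC against pre-NRC starvation 4 of the 64 were higher and 0 lower in edgeR (median 0.46). At an unadjusted p 22 were higher and 1 lower, in DESeq2 11 were higher and 1 lower, and in limma-voom 6 were higher. Of all 10883 genes tested, edgeR called 1.9% higher and 3.29% lower. At an unadjusted p 1314 of all genes were higher and 1626 lower, and DESeq2 called 690 higher and 1196 lower. FKBP59, an immunophilin partner of Hsp83, averaged 1151 CPM in post-NRC starvation and 299 CPM in pre-NRC starvation (1.95, SE 0.39, adjusted p = 0.0362, edgeR). DnaJ-H (1.01, SE 0.19), T-cp1 (0.84, SE 0.18) and Tcp-1eta (0.81, SE 0.19) followed, with adjusted p values of 0.0353, 0.0378 and 0.0484 in edgeR. The first 3 calls were each lost without 6 of the 9 libraries and that of Tcp-1eta without 8. Of the abundant genes that did not pass, Hsc70-3 stood at 0.55, Hsc70-4 at -0.26, Gp93 at 0.60, DnaJ-1 at 0.48, Droj2 at -0.14, l(2)efl at 0.41, CG14207 at -0.17, HDAC6 at -0.48 and Hsf at 0.00, where Droj2, HDAC6 and Hsf changed sign under some alternatives.

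**Figure D5:**
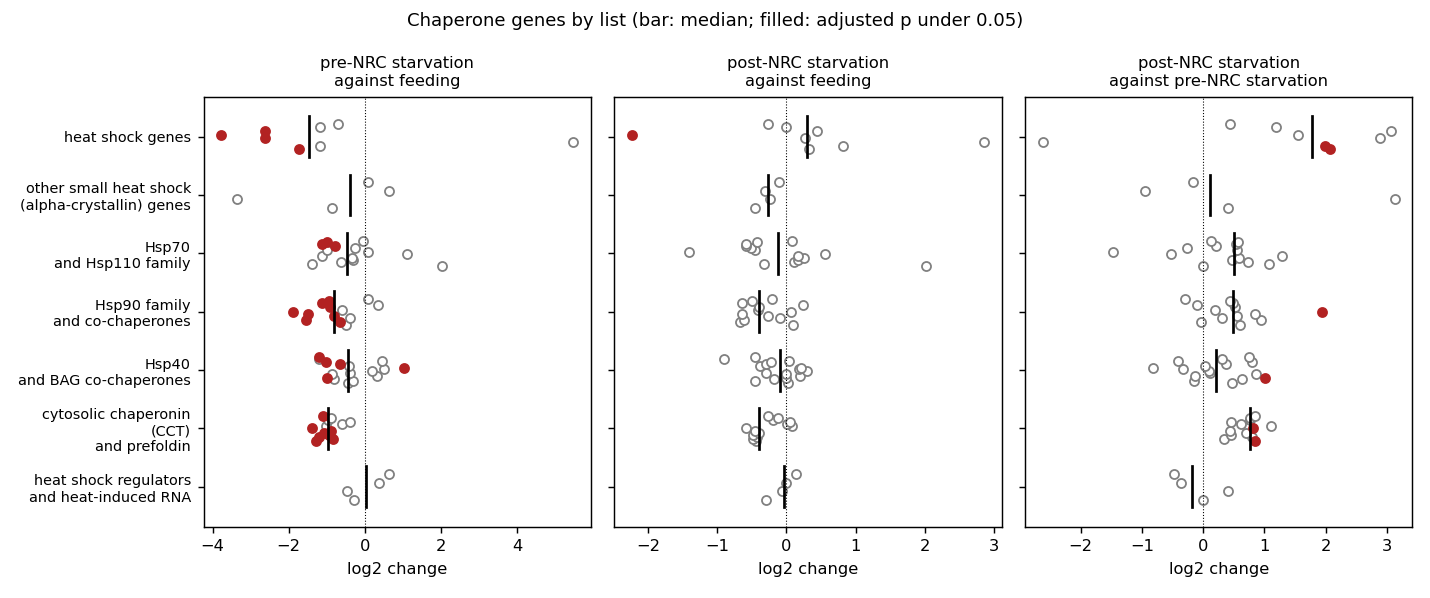
Log2 change of the tested heat shock genes and of 6 lists of other chaperone genes in the 3 comparisons, with 1 point per gene, a bar at the list's median and filled red points for an adjusted p under 0.05. In pre-NRC starvation against feeding the medians of the heat shock genes (-1.47), the chaperonin list (-0.96) and the Hsp90 list (-0.81) lie below 0, while the regulators lie at 0.03.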

How the data were processed

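Total RNA of 9 ring gland pools was read in pairs on an Illumina instrument, per the labels' protocols, which name a directional and a small RNA library kit. The whole-number counts per gene were made and deposited by the authors. The submitters' processing notes name Bowtie, Cufflinks, HISAT2 and StringTie, and build BDGP6. For these tools no role or version, and for the counting no tool or strand setting, is given in the sources used here. Values in FPKM also come from the authors' table, per the file headers, and served here for levels between genes and for 2 alternatives. Columns named WT with a time of 108 h lack a starvation term and were taken as the feeding libraries.

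Genes were filtered with filterByExpr (at least 10 counts), which left 10883 of 14409 genes, and libraries were scaled by TMM. The quasi-likelihood test of edgeR 4.0.16 (R 4.3.3) was fitted to the 9 libraries together, each group having its own coefficient; tests were two-sided, and p-values were adjusted by Benjamini-Hochberg with a threshold of 0.05. It was tested on simulated counts with known changes. For log2 CPM in correlations a prior count of 2 was added. DESeq2 1.42.0 and limma 3.58.1 gave alternatives. Coordinates came from the reference annotation of build BDGP6, and symbols are printed as in the table. No sequence is shown, and promoters and protein identity were not analysed here.

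The heat shock genes, the chaperone and marker lists, and the alternatives were chosen with earlier results of these data known. List genes matched the table's symbol in 136 cases and the current symbol in 13, and 4 were not found. A few list entries were corrected from the annotation after the table was read. Named were all 9 heat shock genes, from each chaperone list up to 4 genes that passed, by smallest p (where fewer than 2 did, up to 2 of the most abundant), and the 5 genes most like Hsp23 and Hsp83. Genes of the marker lists are given only as counts and sums.

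The design text calls the pools biological replicates, and p-values measure the spread between them. Deviations from the group means correlated between libraries of the same number, with r of 0.117 to 0.302 (pre-NRC starvation and feeding), 0.119 to 0.297 (post-NRC starvation and feeding) and 0.0998 to 0.365 (post-NRC and pre-NRC starvation). All main values came from the fit without pairs. Every same-number pair was over 0.1 in both comparisons with feeding. There the alternative fit with the replicate block was read as pairing the libraries, and in the third comparison it was not. This rests on the data and not on the labels. Between replicates 1 and 2 of different groups, r was about as high in the comparisons with feeding (0.0946 to 0.125). The correlations therefore do not show that numbers 1 and 2 are pairs.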

Additional observations from a re-analysis of the deposited data

Results flagged for a closer look

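Hsp23 and Hsp26 were picked out because their difference from feeding was not the same in both starved groups, by the test of post-NRC against pre-NRC starvation itself. For Hsp23 that difference was 2.06 on the log2 scale (SE 0.44, adjusted p = 0.0389, edgeR; higher in 3 of 3 post-NRC starvation libraries), with 0.32 in post-NRC starvation and -1.74 in pre-NRC starvation against feeding. For Hsp26 it was 1.99 (SE 0.44, adjusted p = 0.0429, edgeR; higher in 3 of 3), with 0.82 in post-NRC starvation and -1.17 in pre-NRC starvation against feeding. Groups of 3 libraries are small for a test of single outlying libraries, and none was run beyond the defaults of the tools. With its default settings DESeq2 gave Hsp27 no adjusted p in any comparison.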

How the results depend on the processing

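For the 8 tested heat shock genes, 273 values in the alternatives other than those without 1 library kept their direction and call, 32 gained the call, 18 lost it and 13 changed sign. In fits without 1 library these numbers were 165, 8, 37 and 6. The cause of the changes was not tested.

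Of the counts of heat shock genes called, that in pre-NRC starvation against feeding (4) was 2 with only the 2 groups compared. It was 8 in replicates 1 and 2, with Hsp22 included, and 1 with feeding replicates 1 and 2 summed. At an adjusted p under 0.01 it was 1, and without 1 library it was 1 to 6. That in post-NRC starvation against feeding (1) was 0 in limma-voom, with 2 groups, with feeding summed and at 0.01, 2 in replicates 1 and 2, and 0 to 2 without 1 library. That in post-NRC against pre-NRC starvation (2) was 5 in DESeq2, on log2(FPKM + 1), on log2(FPKM + 0.1) and with a term for replicate 3, 4 in limma-voom, 6 in replicates 1 and 2, 0 with 2 groups, with feeding summed and at 0.01, and 0 to 4 without 1 library.

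All genes called in pre-NRC starvation against feeding (2998) numbered 4501 with the replicate 3 term, 4598 in replicates 1 and 2, 1263 with feeding summed, 872 at 0.01 and 1166 to 3404 without 1 library. In post-NRC starvation against feeding (88) they numbered 733 in DESeq2, 41 in limma-voom, 134 on log2(FPKM + 0.1), 42 with 2 groups, 408 with the replicate 3 term, 741 in replicates 1 and 2, 18 with feeding summed, 18 at 0.01 and 14 to 171 without 1 library. In post-NRC against pre-NRC starvation (565) they numbered 1886 in DESeq2, 1079 on log2(FPKM + 1), 922 on log2(FPKM + 0.1), 79 with 2 groups, 2182 with the replicate 3 term, 3041 in replicates 1 and 2, 51 with feeding summed, 7 at 0.01 and 6 to 1551 without 1 library.

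Chaperone genes called in pre-NRC starvation against feeding (24) numbered 40 in replicates 1 and 2, 13 at 0.01 and 15 to 29 without 1 library. In post-NRC starvation against feeding (0) they numbered 4 in DESeq2, 1 with the replicate 3 term, 2 in replicates 1 and 2 and 0 without any 1 library. In post-NRC against pre-NRC starvation (4) they numbered 12 in DESeq2, 8 on log2(FPKM + 1), 0 with 2 groups, with feeding summed and at 0.01, 24 with the replicate 3 term, 31 in replicates 1 and 2, and 0 to 10 without 1 library.

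With the replicate block, the count of heat shock genes lower in pre-NRC starvation than in feeding was 5. Apart from Hsp83, the block changed no call of a heat shock gene in the comparisons with feeding. In post-NRC against pre-NRC starvation, where the numbers were not taken as pairs because 1 of the correlations was 0.0998, just under 0.1, 5 heat shock genes (with Hsp67Ba at an adjusted p of 0.0257, Hsp67Bb at 0.0399 and Hsp67Bc at 0.0243 in edgeR), 17 chaperone genes and 1512 genes in all were called with the block, and 193 genes in all in post-NRC starvation against feeding.

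Values near 0 changed sign. So did values of Hsp27 that were not near 0, at 5.47 in pre-NRC starvation against feeding and -2.61 in post-NRC against pre-NRC starvation in the main fit. In post-NRC starvation against feeding Hsp68 stood at 0.002 with RLE size factors and in DESeq2, 0.001 with 2 groups, 0.073 with upper-quartile factors, 0.015 with the stricter filter, 0.66 in limma-voom, 0.57 on log2(FPKM + 1), 0.60 on log2(FPKM + 0.1), 0.20 with the replicate block, 0.26 with the replicate 3 term, 0.34 with feeding summed and -0.55 to 0.36 without 1 library. Hsp27 stood at -0.72 to 6.05 without 1 library in pre-NRC starvation against feeding, and in post-NRC against pre-NRC starvation at 0.52 in limma-voom, 0.18 on log2(FPKM + 0.1) and -3.81 to 3.57 without 1 library. The 6 Hsp70 copies summed stood at 0.17 with the block in post-NRC starvation against feeding.

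Of the chaperone genes, CG14207 ranged without 1 library from -0.07 to 0.25 in pre-NRC starvation against feeding and from -0.28 to 0.025 in post-NRC starvation against feeding. In post-NRC starvation against feeding Gp93 was at -0.002 with feeding summed and -0.04 to 0.28 without 1 library, FKBP59 at -0.062 on both FPKM scales and -0.28 to 0.31 without 1 library, and DnaJ-1 at -0.25 in replicates 1 and 2 and -0.31 to 0.25 without 1 library. HDAC6 in replicates 1 and 2 was at -0.11 in pre-NRC starvation against feeding, -0.001 in post-NRC starvation against feeding and 0.105 in post-NRC against pre-NRC starvation, with -0.77 to 0.13 there without 1 library. In post-NRC against pre-NRC starvation Droj2 ranged from -0.37 to 0.10 and Hsf from -0.29 to 0.30 without 1 library, and Hsf was at -0.029 with RLE and in DESeq2, -0.013 with upper-quartile factors, -0.011 in limma-voom, -0.04 with the stricter filter, -0.037 with the replicate 3 term, -0.055 on log2(FPKM + 1), -0.058 on log2(FPKM + 0.1), -0.019 with the block and -0.17 in replicates 1 and 2.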

Other observations

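The counts and FPKM values of Hsp67Bb were not in a fixed ratio. Counts divided by FPKM and library total corresponded to a length of 608, 715 and 641 bases in post-NRC starvation replicates 1, 2 and 3, 653, 639 and 632 bases in pre-NRC starvation and 1058, 942 and 750 bases in feeding. After scaling each library to its median gene, the highest value was 1.83 times the lowest. Of 8851 genes with a mean count of at least 50, 4.50% had a ratio as large, and the median ratio was 1.05. The gene has 4 annotated transcripts, of 427 to 1900 bases, and shares its exons with Hsp22. On the FPKM scale Hsp67Bb averaged 43.7 ± 18.6 in post-NRC starvation, 15.3 ± 3.12 in pre-NRC starvation and 139 ± 35.2 in feeding (SD, n = 3 in each group). For the other heat shock genes with enough counts this ratio lay between 1.01 (Hsp68) and 1.25 (Hsp27).

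Markers of the corpora cardiaca, the adipokinetic hormone cells, summed to 4849 to 9196 CPM in post-NRC starvation, 8986 to 18210 CPM in pre-NRC starvation and 1592 to 4902 CPM in feeding. Salivary gland markers summed to 26.2 to 2828 CPM in post-NRC starvation, 4.55 to 76.9 CPM in pre-NRC starvation and 310.4 to 2540 CPM in feeding.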
